A study of Caenorhabditis elegans with 18 samples.

Results

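The comparison described here is the heat by pqm-1 interaction: the change with heat in a pqm-1 mutant strain minus the change with heat in the wild type, gene by gene. It rests on 8 of the 18 samples of the series, the libraries labelled replicate 2 and 3 of 4 groups. RNA was sequenced from whole adult Caenorhabditis elegans on day 1 of adulthood. The wild type was N2 Bristol, and the mutant strain was RB711, which carries the allele pqm-1(ok485), a null mutation per the series description. Eggs of both strains were hatched to arrested larvae, and these grew to adulthood on plates of OP50-1 bacteria. The heated groups spent 1 h at 35 °C in a water bath and then recovered for 2 h at 20 °C before collection, while the control groups were labelled 20 °C. Libraries of a daf-16(mu86) strain, CF1038, kept and heated in the same way, entered the estimate of the spread, which all 12 libraries share, and a grouping of genes by their response in that strain. The labels give 3 biological replicates for each group without saying how they were kept apart, so p-values measure the spread between libraries as labelled.

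PQM-1 is a C2H2 zinc finger transcription factor. It is best known in the intestine, where it binds the DAF-16 associated element and tends to leave the nucleus when the FOXO factor DAF-16 enters it. Genes near DAF-16 binding elements, called class I, include stress resistance genes, and genes near the DAF-16 associated element, called class II, include growth, metabolic and secreted defence genes. Heat shock itself acts first through HSF-1, which drives the chaperone genes hsp-16 and hsp-70. An interaction asks a narrower question than a heat or a strain comparison: which genes responded less, more or in the other direction to heat when pqm-1 was mutated.

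The labels were checked with hsp-16.2, which heat induces strongly. Scaled to the gene total of each library, its level was at most 0.42 CPM (counts scaled for library depth) in the 6 libraries labelled 20 °C and replicate 2 or 3, and at least 263 CPM in the 6 heated ones. Columns labelled replicate 1 went the other way: 209 CPM under the name of N2 at 20 °C, 324 CPM under that of pqm-1 at 20 °C, but 0.417 CPM in heated N2, 0.0391 CPM in heated pqm-1 and 0.256 CPM in heated daf-16. The deposited column named for the sixth such library holds transcript lengths instead of counts. If the header is displaced by 1 column, the first pair would be heated daf-16 and heated N2 libraries. No library labelled replicate 1 entered any comparison. The 8 libraries held 19794231 to 33399557 counts assigned to genes.

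The mutated gene was measured first. pqm-1 stood at 26.1 and 24.1 CPM in N2 at 20 °C, 33.0 and 32.4 CPM in heated N2, 12.55 and 9.96 CPM in the mutant at 20 °C, and 19.2 and 21.5 CPM in the heated mutant. Every mutant library lay below every N2 library, and the row did not reach 0. Whether the counted bases lie inside the deleted part was not checked. In log2 terms the mutant was lower by 1.16 at 20 °C and by 0.69 after heat, with adjusted p-values of 0.0584 and 0.18 (edgeR quasi-likelihood test, Benjamini-Hochberg). The RNA left in the mutant was higher after heat by 0.85 on the log2 scale (adjusted p 0.00559, same test), while the change in N2 was 0.38 (adjusted p 0.102). The difference of these responses, 0.47, did not pass the test (edgeR unadjusted p 0.0863). daf-16, the partner factor, lay between 88.0 and 112 CPM in all 8 libraries and had an interaction of -0.22 with an interval from -0.54 to 0.11.

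No single gene passed the interaction test. Of 14286 genes tested, 0 had a Benjamini-Hochberg adjusted p under 0.05 in edgeR's quasi-likelihood test, the smallest adjusted p being 0.0821, while 1110 genes (7.77%) had an unadjusted p under 0.05. DESeq2, run on the same libraries, called 8 of the 6254 genes to which it gave an adjusted p (0.128%). edgeR without a filter on low counts called 280, in a fit where a gene's own spread no longer entered its test. Of the 1110 genes, 509 (3.56% of those tested) had a higher response in the mutant and 601 (4.21%) a lower one. Over all genes tested the interaction was positive in 50.8%, the background for the counts of signs in gene lists below. Each strain gives 4 heat responses, every heated library minus every 20 °C library, and these did not overlap between strains for 3447 genes (24.1%), 1916 higher in the mutant (13.4%) and 1531 lower (10.7%). The interaction had a median standard error of 0.196 on the log2 scale, so the 95% interval of a typical gene reached 0.427 to either side, and in the 10% of genes with the widest intervals at least 1.22.

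Nearly all genes that heat changed in both strains changed in the same direction. Heat changed 4958 genes in N2 (34.7%; 2411 higher, 16.9%, and 2547 lower, 17.8%) and 3592 genes in the mutant (25.1%; 1791 higher, 12.5%, and 1801 lower, 12.6%) at an adjusted p under 0.05. Both lists held 2755 genes, 2754 of them changed in the same direction. That is 55.6% of the N2 list and 76.7% of the mutant list. dhfr-1, which encodes dihydrofolate reductase, was the exception. Its level was 35.6 and 32.6 CPM in N2 at 20 °C against 29.6 and 28.4 CPM after heat, and 27.4 and 25.5 CPM in the mutant at 20 °C against 30.7 and 31.8 CPM after heat. It fell by 0.23 in N2 and rose by 0.24 in the mutant (log2), with an interaction of 0.47 that did not pass (edgeR adjusted p 0.57). Leaving out heated N2 replicate 2 lowered the number of genes changed in N2 to 3294, and leaving out mutant 20 °C replicate 3 lowered the number in the mutant to 2022.

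**Figure D1:**
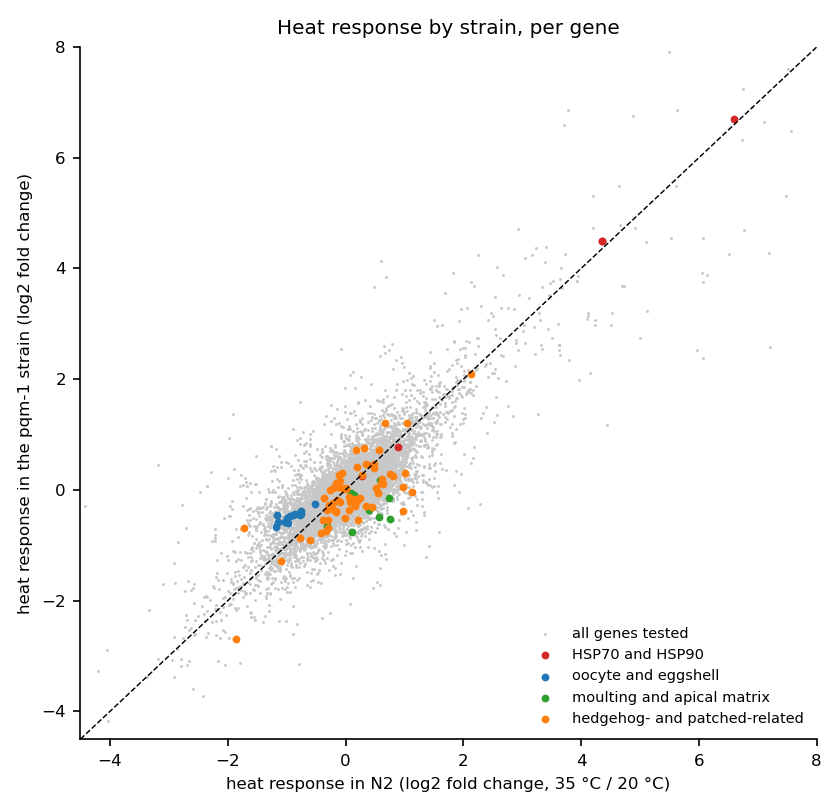
Heat response of each tested gene in N2 (x axis) against the pqm-1 strain (y axis), both as log2 fold change, with the line of equal response dashed and 4 gene lists in colour. HSP70 and HSP90 genes lie near the line, oocyte and eggshell genes above it and moulting and apical matrix genes below it, while 14 genes, the hsp-16 genes among them, lie outside the axes.

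Less, more or opposite can be counted among the 1110 genes with an unadjusted p under 0.05. In 436 of them (39.3%) the mutant responded in the same direction as N2 but less, and all 436 were called for heat in N2. In 161 (14.5%) the mutant responded more, and all 161 were called for heat in the mutant. In the remaining 513 (46.2%) the responses had opposite signs, though only dhfr-1 was called for heat in both strains. These classes follow from the signs and sizes of the same values that chose the genes, and carry no test.

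To ask whether heat-induced or heat-repressed genes as a whole responded differently, genes were grouped by how they responded to heat in the daf-16 strain. Counts of those libraries do not enter the interaction, but the shared estimate of the spread behind the calls uses all 12. The 2359 genes that rose with heat there (16.5%) had a median interaction of -0.01, and the 2358 that fell (16.5%) had a median of -0.02, against 0.00 over all genes tested. Unadjusted p-values under 0.05 were found for 7.38% of the first class (62 higher and 112 lower) and 8.69% of the second (76 higher and 129 lower), near the background of 7.77%. The most strongly induced genes, 548 with a log2 change over 1 in the daf-16 strain, rose by a median of 1.43 in N2 and 1.39 in the mutant. Without heated N2 replicate 3 the median of the fallen class became 0.06, and without heated N2 replicate 2 it became -0.09. Without heated N2 replicate 2 the median of the risen class was 0.01.

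The heat shock chaperones were induced in both strains, and their differences had wide intervals. hsp-16.1, a small heat shock protein of the alpha-crystallin family that holds unfolded proteins, stood at 1.69 and 2.21 CPM in N2 and at 1.80 and 1.64 CPM in the mutant at 20 °C. After heat it reached 1912 and 1025 CPM in N2 and 1573 and 1670 CPM in the mutant. The mutant libraries lay between the 2 heated N2 libraries, and the interaction was 0.34 with an interval from -0.88 to 1.56. Its counts equal those of hsp-16.11, a near-identical copy, so these rows are not separate, and the same holds for hsp-16.48 and hsp-16.49. All 6 hsp-16 genes rose in both strains, the median being 9.54 in N2 and 9.88 in the mutant (log2), and 0 of 6 had an interaction p under 0.05, against 7.77% of all genes.

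hsp-70, the inducible cytosolic HSP70, went from 0.847 and 0.960 CPM to 136 and 40.8 CPM in N2 and from 0.805 and 1.22 CPM to 104 and 108 CPM in the mutant. Its interaction of 0.12 has an interval from -3.18 to 3.42, since the heated N2 libraries differ more than 3-fold from each other. The abundant members gave narrower limits. hsp-90 (daf-21), the cytosolic HSP90, had an interaction of -0.02 (interval -0.28 to 0.24), hsp-1, the constitutive HSP70, -0.03 (-0.26 to 0.21) and hsp-110, an HSP70 nucleotide exchange factor, -0.12 (-0.42 to 0.19). Of 12 endoplasmic reticulum chaperones, 10 rose in N2 and 6 in the mutant, against 16.9% and 12.5% of all genes. Their median interaction was -0.07, with 0 members under an unadjusted p of 0.05, among them cnx-1, the lectin chaperone calnexin (-0.16), and crt-1, calreticulin (-0.04).

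The gene group that stood lowest was the moulting and apical extracellular matrix list. Its proteins are secreted by the epidermis or line epithelial tubes, where they pattern and shed the cuticle. All 10 members had a negative interaction, with a median of -0.58 against 0.00 over all genes. An unadjusted p under 0.05 was reached by 5 of 10, all lower, against 4.21% of all genes, and the responses did not overlap in 7 of 10, against 10.7%. Gene lists, here and below, were chosen with earlier results of these data known, and members of a list share the same libraries. Such shares are therefore not counts of independent genes and carry no test. In N2 4 members rose with heat and 1 fell. In the mutant 0 rose and 3 fell. Over all genes 16.9% rose and 17.8% fell in N2, and 12.5% rose and 12.6% fell in the mutant.

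noah-1 encodes a zona pellucida protein that attaches the epidermis to the cuticle matrix. It was at 179 and 119.1 CPM in N2 at 20 °C and at 202 and 239 CPM after heat, and in the mutant at 253 and 300 CPM at 20 °C and at 204 and 188 CPM after heat. N2 libraries were lower at 20 °C than after heat, mutant libraries were higher, and the 2 strains did not overlap at 20 °C. It rose by 0.57 in N2 (edgeR, Benjamini-Hochberg adjusted p 0.0282), and its change in the mutant was -0.49 (adjusted p 0.0616, same test). The interaction was -1.06 ± 0.25 (standard error, log2), with an adjusted p of 0.57 in edgeR and 0.014 in DESeq2 (both Benjamini-Hochberg). noah-2, its close relative, showed the same order with 179 and 144 CPM, then 187 and 236 CPM in N2, and 258 and 284 CPM, then 218 and 202 CPM in the mutant. Its interaction was -0.75 ± 0.20 (standard error).

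let-653, a zona pellucida protein of the lumen matrix, was at 17.4 and 12.56 CPM in N2 at 20 °C and 24.2 and 25.6 CPM after heat, but at 29.0 and 26.2 CPM and then 25.97 and 24.1 CPM in the mutant. Here too the lowest libraries were the N2 libraries at 20 °C, and the interaction was -0.88. The remaining members under the unadjusted threshold were mlt-9, which is needed to shed the old cuticle (-0.40), and mlt-11, a protease inhibitor-like matrix protein (-0.86). The others were nas-37, an astacin protease of moulting (-0.33), fbn-1, a fibrillin relative (-1.27, interval -2.71 to 0.17), mlt-8 (-0.24), mlt-7, a peroxidase that crosslinks collagen (-0.15), and mlt-10 (-0.08).

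The difference lay mostly in the 20 °C libraries. The mutant stood above N2 in 10 of 10 members at 20 °C, by a median of 0.61, and in 5 of 10 after heat, by a median of 0.00; 0 of 10 passed the strain comparison at either temperature. Over all genes that comparison called 9 (0.063%; 8 higher, 0.056%, and 1 lower, 0.007%) at 20 °C and 35 (0.245%; 30 higher, 0.21%, and 5 lower, 0.035%) after heat. Summed over the 10 members, the level was 1264 and 1101 CPM in N2 at 20 °C, 1287 and 1401 CPM in heated N2, 1677 and 1819 CPM in the mutant at 20 °C, and 1397 and 1317 CPM in the heated mutant. The daf-16 libraries, outside the interaction, stood at 2200 and 1742 CPM at 20 °C and 1766 and 1780 CPM after heat. The N2 libraries at 20 °C were the lowest 2 of all 12, and those of both mutant strains at 20 °C were above every N2 library.

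**Figure D2:**
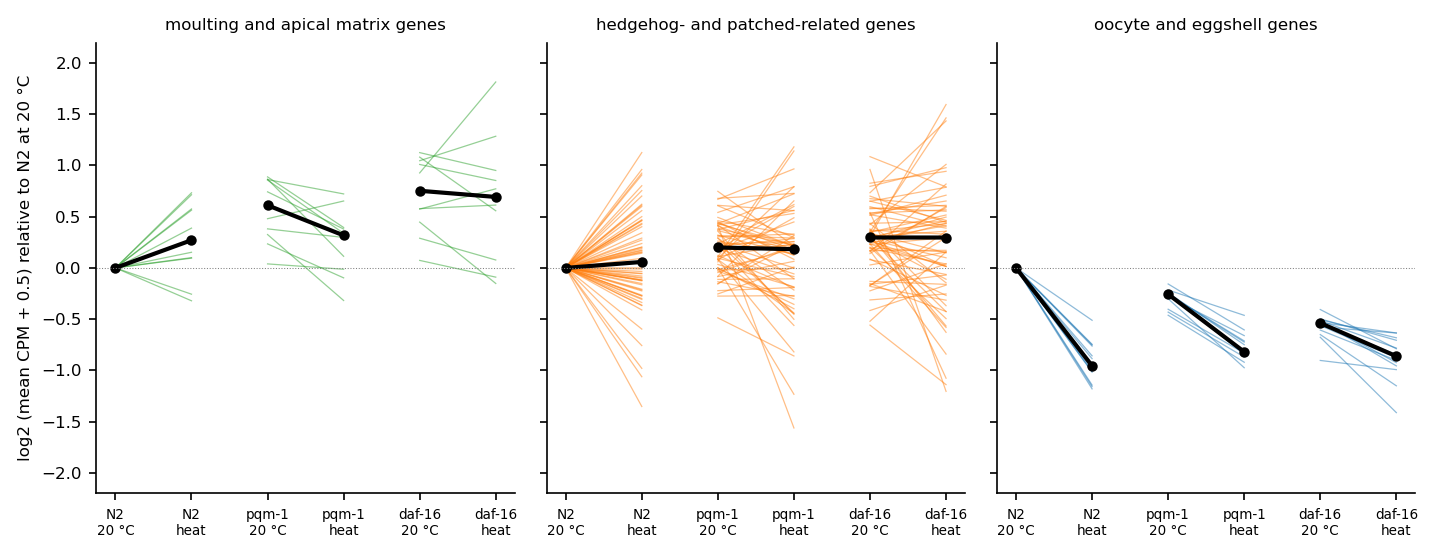
Mean level per group of each member of 3 gene lists, as log2 of mean CPM plus 0.5 relative to N2 at 20 °C (thin lines join the 20 °C and heated group of a strain, black points are medians over members, 2 libraries per group). Moulting and apical matrix members start higher in the pqm-1 and daf-16 strains (medians 0.61 and 0.75) and oocyte and eggshell members start lower (-0.26 and -0.54).

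Hedgehog-related and patched-related genes also tended to a lower response in the mutant. Worms lack a canonical hedgehog ligand. They have expanded families of secreted wrt, grd, grl and qua proteins and of patched-related membrane proteins (ptr, ptc), many of which act in the epidermis and in moulting. Of 83 genes 64 were tested, and 43 had a lower response in the mutant, with a median of -0.17. An unadjusted p under 0.05 was reached by 20 of 64 (31.2%), all lower, against 4.21% of all genes, and by 0 in the other direction. Leaving out heated mutant replicate 3 lowered this number to 12, the fewest under any left-out library.

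Among the secreted members, qua-1 was at 126 and 107 CPM in N2 at 20 °C and 214 and 192 CPM after heat, against 155 and 184 CPM and then 213 and 190 CPM in the mutant. The strains met after heat and were apart before it, with an interaction of -0.55. It rose in N2 (0.80, edgeR adjusted p 0.000651, Benjamini-Hochberg), and its change in the mutant was 0.25 (adjusted p 0.181, same test). The warthog genes wrt-10 (-0.75), wrt-2 (-0.76), wrt-8 (-0.53) and wrt-1 (-0.47) lay on the same side, as did the groundhog genes grd-1 (-0.38) and grd-11 (-0.84) and the low-level ground-like genes grl-1 (-1.36) and grl-22 (-0.60).

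Among the membrane proteins, ptr-15 was at 4.39 and 4.59 CPM in N2 at 20 °C and 9.72 and 7.98 CPM after heat, against 7.58 and 7.39 CPM and then 8.37 and 7.15 CPM in the mutant. Only the N2 libraries at 20 °C stood apart, and the interaction was -0.91. Its exons overlap those of mec-1 on the other strand, so its counts are uncertain. ptr-1 (-0.64), ptr-4 (-0.45), ptr-23 (-0.50), ptr-11 (-0.40), ptr-21 (-0.41), ptr-5 (-0.43), ptr-20 (-0.48), ptr-24 (-0.30), ptr-22 (-1.17) and the patched homologue ptc-3 (-0.32) also had an unadjusted p under 0.05. Over the 64 genes the mutant was above N2 in 50 at 20 °C (median 0.22) and in 33 after heat (median 0.01). Their summed level was 3071 and 3022 CPM in N2 at 20 °C and 2825 and 2911 CPM in heated N2. In the mutant it was 3629 and 3443 CPM at 20 °C and 2934 and 2840 CPM after heat. Unlike in the moulting list, N2 at 20 °C was not the lowest group in this sum. By the median over members it was the lowest, as in the moulting list. Relative to it, on the log2 scale, the median was 0.058 in heated N2. It was 0.199 and 0.183 in the mutant at 20 °C and after heat, and 0.297 and 0.296 in the daf-16 strain. With heat 14 members rose and 10 fell in N2, and 4 rose and 13 fell in the mutant. Over all genes 16.9% rose and 17.8% fell in N2, and 12.5% rose and 12.6% fell in the mutant.

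Cuticle collagens lay on both sides. Of 139 tested, 93 had a lower response in the mutant (median -0.12), and 10 against 4 had an unadjusted p under 0.05 in the lower and the higher direction (7.19% and 2.88%, against 4.21% and 3.56% of all genes). The lower ones included the furrow collagens, which mark the circumferential grooves of the cuticle: dpy-7 (-0.86), dpy-9 (-0.74), dpy-2 (-0.70), dpy-10 (-0.75) and dpy-8 (-0.72). dpy-7 was at 72.4 and 58.0 CPM in N2 at 20 °C and 76.8 and 112 CPM after heat, but at 97.7 and 104 CPM and then 79.7 and 81.5 CPM in the mutant. The higher ones were col-42 (0.45), col-103 (0.45), col-98 (0.41) and the low-level col-123 (1.16). col-42 was at 553 and 563 CPM in N2 at 20 °C and 393 and 421 CPM after heat, and in the mutant at 462 and 416 CPM and then 446 and 431 CPM. It fell in N2 by 0.46 and stayed within 0.01 of its 20 °C level in the mutant on the log2 scale.

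Markers of the epidermis were examined beside these groups. Of 6 hypodermis markers 5 had a row, and their summed level was 2633 to 2683 CPM in N2 at 20 °C, 2006 to 2192 CPM in heated N2, 2320 to 2395 CPM in the mutant at 20 °C and 1896 to 2098 CPM in the heated mutant. The sum follows col-19, an adult collagen, at 2126 and 2067 CPM in N2 at 20 °C and 1597 and 1615 CPM in the mutant at 20 °C. The median interaction of the 5 markers was -0.24, with 3 non-overlapping lower responses and 1 higher, against 10.7% and 13.4% of all genes. dpy-7 (-0.86), rol-6 (-0.28) and bli-1 (-0.24), also cuticle collagens, lay on the side of the moulting genes, and col-19 (0.23) on the other. elt-3, the epidermal GATA factor, stayed between 26.3 and 30.6 CPM in the 8 libraries, with an interaction of 0.02 (interval -0.24 to 0.27). No hypodermis marker with a row was at 0. In RNA of whole worms, fewer cells of a type and less RNA per cell cannot be told apart, and the part of epidermal cell content or of developmental timing in these values was not tested.

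Oocyte and eggshell genes lay on the opposite side. All 14 members with a row had a positive interaction, with a median of 0.43, and the 4 responses did not overlap in 13 of 14, against 13.4% of all genes. Only 2 of 14 had an unadjusted p under 0.05, against 3.56%, and this number was 0 without N2 20 °C replicate 2, heated N2 replicate 2, either mutant 20 °C library or heated mutant replicate 3. Scaling by library size only gave 0, and fitting only the 8 libraries gave 13. Heat lowered 13 of 14 in N2 and 7 of 14 in the mutant, by medians of 0.96 and 0.46 on the log2 scale, where 17.8% and 12.6% of all genes fell. In the daf-16 libraries the median change was -0.30, with 2 called.

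cpg-1, a chitin-binding proteoglycan of the eggshell, was at 881 and 811 CPM in N2 at 20 °C and 324 and 434 CPM after heat, and in the mutant at 635 and 593 CPM and then 411 and 482 CPM. N2 was above the mutant before heat, and the strains overlapped after it. The interaction was 0.70 with an interval from 0.01 to 1.39. perm-2 (0.42), a component of the eggshell permeability barrier, was the other member under the unadjusted threshold. cpg-3 (0.51), perm-4 (0.32), which acts with perm-2, the oocyte maturation factors oma-1 (0.31) and oma-2 (0.57), the sperm-binding receptors egg-1 (0.47) and egg-2 (0.44), the yolk receptor rme-2 (0.38) and the translational repressor puf-5 (0.44) lay on the same side. chs-1, the eggshell chitin synthase, had the least difference of those named (0.27). At 20 °C the mutant was below N2 in 14 of 14 (median -0.26), and after heat it was above in 12 of 14 (median 0.18). No member passed the strain comparison at either temperature.

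Other germline and yolk genes were examined beside these. The summed oocyte list went from 6855 and 5876 CPM to 3145 and 3474 CPM in N2, and from 5198 and 5087 CPM to 3452 and 3884 CPM in the mutant; the daf-16 libraries had 3761 and 4613 CPM at 20 °C. The 8 germline markers together stayed between 2214 and 2605 CPM, with a median interaction of -0.05, and none was at 0. Of 5 early embryo markers 4 were too low to test, and pes-10, at most 1.05 CPM in the 8 libraries, had an interaction of 3.65 (interval 0.64 to 6.65). Of 58 sperm genes tested, 26 fell in N2 and 28 in the mutant, where 17.8% and 12.6% of all genes fell. Their median interaction was -0.03, with 5 lower against 0 higher under an unadjusted p of 0.05. The lower share was 8.62%, against 4.21% of all genes. All 4 vitellogenins, the yolk lipoproteins made by the intestine, fell in both strains, by medians of 1.47 and 1.31 (log2), and their median interaction of 0.18 became -0.09 without N2 20 °C replicate 2. The pud genes had a median interaction of 0.68 over 5 genes, all positive, with 0 under the unadjusted threshold. pud-1.2 fell in both strains, from 22.1 and 29.4 CPM to 1.67 and 1.199 CPM in N2 and from 17.1 and 13.2 CPM to 1.32 and 1.82 CPM in the mutant. pud-2.1 and pud-2.2 have the same counts, and pud-3 and pud-4 were below 1 CPM. The part of oocyte or embryo number per worm in these values was not tested.

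**Figure D3:**
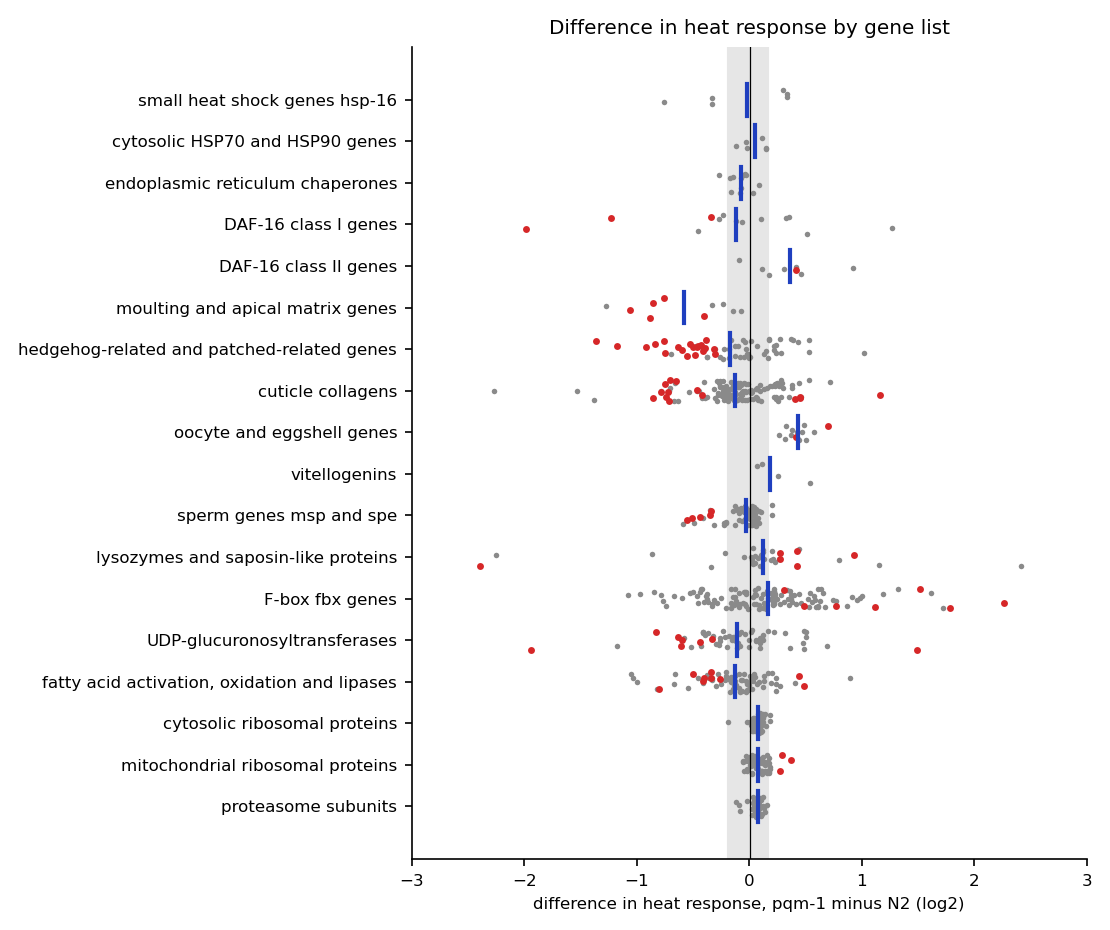
Difference in heat response (log2, pqm-1 strain minus N2) of each tested member of 18 gene lists, with members at an unadjusted p under 0.05 in red, list medians as blue bars, and the median and interquartile range of all 14286 tested genes as a line and grey band. The moulting and apical matrix median (-0.58) and the oocyte and eggshell median (0.43) lie furthest outside the grey band. The medians of DAF-16 class II genes (0.36), vitellogenins (0.18) and F-box genes (0.17) also lie outside it, and the median of the hsp-16 genes (-0.02) lies within it.

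DAF-16 class I genes gave a mixed picture. Of 13 with a row, 6 rose and 1 fell with heat in N2, and 6 rose and 2 fell in the mutant, beside 16.9% and 17.8%, and 12.5% and 12.6%, of all genes. The median interaction was -0.12, and 3 members (23.1%) had a lower response at an unadjusted p under 0.05, against 4.21% of all genes. mtl-1, a heavy metal binding metallothionein, was at 0.299 and 0.417 CPM in N2 at 20 °C and 6.09 and 5.47 CPM after heat, against 0.142 and 0.795 CPM and then 1.67 and 2.12 CPM in the mutant. The heated libraries of the strains did not overlap, and the daf-16 libraries reached at most 0.587 CPM after heat. mtl-1 rose by 3.97 in N2 and by 1.99 in the mutant (log2), with an interaction of -1.98 ± 0.69 (standard error, unadjusted edgeR p 0.0138).

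The 3 catalase genes, which break down hydrogen peroxide, lie in tandem and share similar sequence, and ctl-1 had divided reads in 11 of the 12 libraries used. ctl-1 rose from 42.6 and 40.6 CPM to 74.98 and 87.8 CPM in N2 and from 46.4 and 45.4 CPM to 74.2 and 68.0 CPM in the mutant. Its interaction of -0.34, with -0.37 for ctl-3 and -0.27 for ctl-2, came from responses that were called in both strains. ftn-1, a ferritin that stores iron, had an interaction of -1.23 at 0.726 to 2.42 CPM. sod-3, a mitochondrial superoxide dismutase often used as a DAF-16 reporter, had 0.36 (interval -0.11 to 0.82), and hsp-12.6 had 0.51 (interval -1.13 to 2.16).

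DAF-16 class II genes tended the other way. Of 8 members 7 had a positive interaction (median 0.36, against 0.00 over all genes), and 1 had an unadjusted p under 0.05, against 3.56% of all genes. dod-24 was at 52.1 and 59.3 CPM in N2 at 20 °C and 28.2 and 26.2 CPM after heat, and at 42.9 and 49.8 CPM and then 29.6 and 30.7 CPM in the mutant. It fell by 1.04 in N2 and by 0.62 in the mutant, and the interaction of 0.42 did not pass (edgeR adjusted p 0.601, Benjamini-Hochberg). dod-21 differed between strains rather than in its heat response. It was at most 1.50 CPM in the 4 N2 libraries and at least 10.7 CPM in the 4 mutant libraries, higher by 3.16 at 20 °C and by 3.58 after heat (log2; edgeR adjusted p 1.28e-05 and 4.04e-06, Benjamini-Hochberg). The interaction of dod-21 was 0.42, with an interval from -0.23 to 1.07.

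Among single genes, spp-23 had the smallest interaction p. It belongs to the saposin-like family, whose members include pore-forming antimicrobial proteins. It stood at 27.4 and 26.2 CPM in N2 at 20 °C and 14.8 and 16.203 CPM after heat, but at 32.9 and 33.5 CPM and then 35.3 and 38.2 CPM in the mutant. Heated N2 was the lowest group and the heated mutant the highest, with no overlap. spp-23 fell by 0.78 in N2, and its change of 0.15 in the mutant did not pass. The interaction was 0.93 ± 0.12 (standard error), with an adjusted p of 0.0821 in edgeR and 0.000398 in DESeq2 (Benjamini-Hochberg). After heat the mutant was above N2 by 1.24 (edgeR adjusted p 2.4e-05).

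dct-17, named for control by DAF-16 and an effect on germline tumours, went from 16.9 and 21.7 CPM to 37.7 and 32.8 CPM in N2 and from 17.2 and 16.9 CPM to 96.0 and 76.5 CPM in the mutant. The strains met at 20 °C and were apart after heat. It rose by 0.87 in N2 and by 2.34 in the mutant, with an interaction of 1.48 ± 0.23 (standard error; adjusted p 0.136 in edgeR and 1.09e-05 in DESeq2, Benjamini-Hochberg). In the daf-16 libraries dct-17 rose by 2.19.

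F49C12.7 was at 3.76 and 3.83 CPM in heated N2 against 7.48 and 8.47 CPM at 20 °C, and lay between 7.34 and 8.23 CPM in the 4 mutant libraries (interaction 1.16, edgeR adjusted p 0.136, Benjamini-Hochberg). The heated daf-16 libraries were low too, at 4.11 and 4.47 CPM. Its exons overlap those of F49C12.6 on the same strand. The other genes of the 12 leading the higher direction were ztf-28, a zinc finger gene (0.85), Y105C5B.15 (0.67), Y40H7A.10 (0.86), dhfr-1 (0.47), the cytochrome P450 gene cyp-36A1 (0.75), T09B9.4 (0.58), drd-50 (1.095), col-42 (0.45) and F30F8.10 (0.47). Of these 12, 8 fell and 1 rose with heat in N2, where 17.8% of all genes fell and 16.9% rose. After heat the mutant was above N2 in 12 of 12. The order of the values that chose these genes favours such counts.

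**Figure D4:**
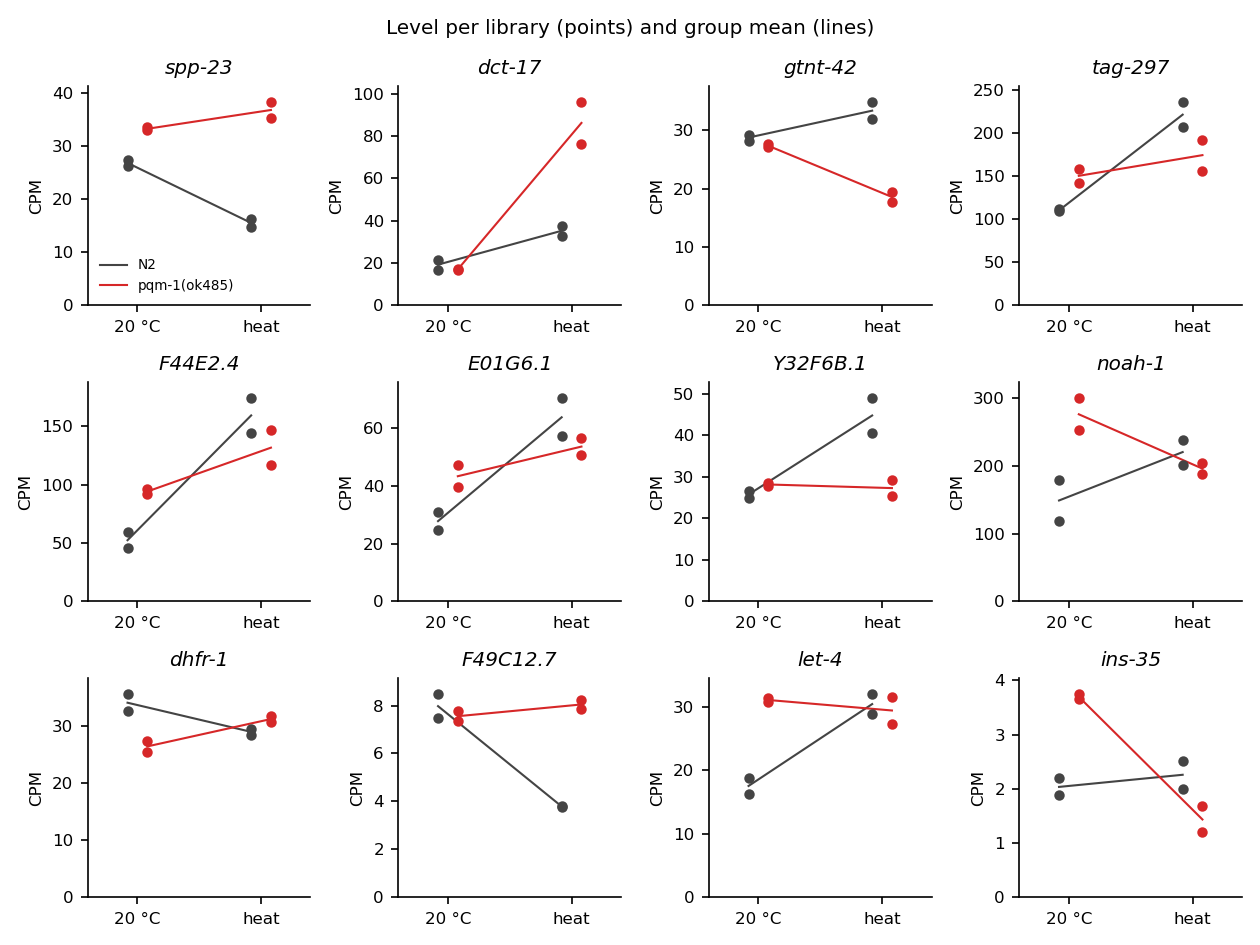
CPM (y axis, from 0) at 20 °C and after heat of 12 genes with leading interactions, with 1 point per library and lines through the group means of N2 (black) and pqm-1(ok485) (red). Of the 4 groups shown, heated N2 was the lowest for spp-23 and F49C12.7 and the heated mutant the highest for dct-17, and F44E2.4, E01G6.1, noah-1 and let-4 were higher in the mutant at 20 °C but not after heat.

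In the lower direction gtnt-42 led. It was at 29.3 and 28.2 CPM in N2 at 20 °C and 31.9 and 34.8 CPM after heat, but at 27.6 and 27.1 CPM and then 17.7 and 19.5 CPM in the mutant. The 20 °C libraries lay close together and the heated mutant stood apart. gtnt-42 fell by 0.56 in the mutant, and after heat the mutant was below N2 by 0.85 (edgeR adjusted p 0.000898, Benjamini-Hochberg). The interaction was -0.78 ± 0.12 (standard error), with an adjusted p of 0.136 in edgeR and 0.00929 in DESeq2 (Benjamini-Hochberg).

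Another pattern, higher in the mutant at 20 °C and not above N2 after heat, was seen in several genes. F44E2.4 went from 59.5 and 45.3 CPM to 174 and 145 CPM in N2 and from 91.6 and 96.6 CPM to 147 and 117 CPM in the mutant. N2 spanned the wider range, from the lowest to the highest group. F44E2.4 rose by 1.60 in N2, while its change of 0.48 in the mutant did not pass (interaction -1.12 ± 0.25, standard error). E01G6.1 (-0.89), tag-297 (-0.79), bam-2 (-0.54), the leucine-rich repeat matrix gene let-4 (-0.88), F23H12.5 (-0.74) and ptr-15 (-0.91) also lay above N2 at 20 °C and not after heat. DESeq2 also called F44E2.4, E01G6.1, tag-297 and Y32F6B.1 (-0.84). ins-35, an insulin-like peptide, was at 1.88 to 2.52 CPM in the 4 N2 libraries, at 3.74 and 3.65 CPM in the mutant at 20 °C and at 1.196 and 1.68 CPM in the heated mutant (interaction -1.54).

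Of the 12 leading genes in the lower direction, 9 rose with heat in N2, where 16.9% of all genes rose. The mutant was above N2 at 20 °C in 11 of the 12 and after heat in 0. As in the higher direction, the values that chose these genes favour such counts. Exons of Y38F2AR.12 (-0.57), Y32F6B.1, ztf-28, cyp-36A1 and F30F8.10 overlap another gene, and F23H12.5 and Y40H7A.10 had divided reads in 11 and 8 of the 12 libraries used, so their counts are uncertain. C01G5.4 (-0.54) completes the 12.

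Defence and detoxification lists held members on both sides. Of 33 lysozyme and saposin-like genes, 27 had a positive interaction (median 0.13), and 5 higher against 1 lower had an unadjusted p under 0.05 (15.2% and 3.03%, against 3.56% and 4.21% of all genes), spp-23 among them. lys-1, an intestinal lysozyme, went from 437 and 525 CPM to 276 and 304 CPM in N2 and from 482 and 441 CPM to 378 and 369 CPM in the mutant. It fell in both strains, by 0.73 in N2 and by 0.31 in the mutant. lys-2 (0.42), spp-17 (0.27) and spp-3 (0.28) lay on the same side, and ilys-3, an invertebrate-type lysozyme below 1 CPM in all 8 libraries, on the other (-2.40).

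C-type lectins had 9 higher and 7 lower of 129 (12.4% under an unadjusted p of 0.05, background 7.77%). Glutathione transferases, which conjugate toxic compounds, had 4 higher and 0 lower of 40 (10% higher, against 3.56%). gst-24 rose in both strains, by 2.05 in N2 and by 2.69 in the mutant. UDP-glucuronosyltransferases had 1 higher and 7 lower of 59 (1.69% and 11.9%), and cytochrome P450 genes 2 higher and 5 lower of 54 (3.7% and 9.26%), against 3.56% and 4.21% of all genes, with cyp-35A2 at 0.30 in N2 (called) and -0.28 in the mutant (not called). The F-box fbx family, which supplies substrate adaptors of ubiquitin ligases, had 7 higher and 0 lower of 126 (5.56% higher, near the 3.56% of all genes), with a median of 0.17. fbxa-79 went from 3.44 and 3.84 CPM to 3.96 and 3.69 CPM in N2 and from 3.22 and 3.74 CPM to 5.64 and 6.80 CPM in the mutant (interaction 0.77).

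irg-1, a pathogen response gene, was at 2.99 and 3.00 CPM in N2 at 20 °C and 5.63 and 3.48 CPM after heat, against 8.76 and 7.90 CPM and then 5.68 and 6.16 CPM in the mutant. It was higher in the mutant at 20 °C by 1.47 (edgeR adjusted p 0.0167, Benjamini-Hochberg), and after heat by 0.40, which did not pass. The interaction was -1.07. The other 5 irg genes tested ranged from -0.23 to 0.35, and only irg-1 of the 6 had an unadjusted p under 0.05.

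Metabolic and housekeeping lists moved by small amounts. Of 76 fatty acid activation, oxidation and lipase genes, 53 had a negative interaction (median -0.13), with 7 lower and 2 higher under an unadjusted p of 0.05 (9.21% and 2.63%, against 4.21% and 3.56% of all genes). The acyl-CoA synthetase genes show both sides. acs-22 rose by 0.45 in N2 with 0.05 in the mutant (interaction -0.40), and acs-1 fell by 1.34 in N2 and by 0.90 in the mutant (0.44). Of 62 cytosolic ribosomal protein genes, 60 had a positive interaction, against 50.8% of all genes, but the median was 0.08 and 0 had an unadjusted p under 0.05. With 1 library left out, the median of these ribosomal genes ranged from 0.0086 to 0.1493. Mitochondrial ribosomal proteins had a median of 0.08 with 57 of 66 positive and 3 higher at an unadjusted p under 0.05 (4.55%, near the 3.56% of all genes). Heat lowered 36 of these in N2 and 11 in the mutant, where 17.8% and 12.6% of all genes fell. The 13 splicing genes were all positive (median 0.13) with 0 under the threshold. These medians compare with 0.00 over all genes and with shifts of the scale given among the limits.

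Tissue markers give the background of whole-worm content. Muscle markers had a median interaction of -0.20 over 7 genes and intestine markers -0.11 over 7, neuron markers -0.08 over 7 and coelomocyte markers -0.03 over 2. pept-1, the intestinal peptide transporter, had an unadjusted p under 0.05. It fell from 267 and 276 CPM to 78.4 and 109 CPM in N2 and from 321 and 325 CPM to 78.6 and 83.3 CPM in the mutant (interaction -0.46). Summed muscle markers were 9846 and 8533 CPM in N2 at 20 °C, 10154 and 10693 CPM in the mutant at 20 °C, and 10897 to 11653 CPM in the 4 heated libraries. Sperm markers had a median of 0.01 over 5.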

How the data were processed

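The deposited table holds the authors' estimated counts per RefSeq transcript, which need not be whole (13.3% of non-zero values are not); their aligner, counter and genome build are not given in the sources used here. One deposited column carries a daf-16 20 °C sample's name but holds transcript lengths: it equals the annotated coding length for 11837 of 12369 single-transcript coding genes. If the header is therefore displaced by 1 column, only libraries labelled replicate 2 and 3 keep their group under both readings, so the 12 of these (2 in each of 6 groups) were used. All 18 value columns were matched by name and 0 were left unmapped.

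Of 50755 rows, 45910 matched a gene name in the RefSeq table, giving 39798 genes. The 4845 unmatched rows, 23.4 to 24.3% of the totals, were left out. For each gene the transcript of highest mean count was kept and its counts rounded. Of the genes tested, 181 have the same counts as another gene. Strand is not given, so overlapping and antisense genes are uncertain.

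Counts were filtered with filterByExpr, scaled with TMM factors and fitted in 1 model over 6 groups (6 residual degrees of freedom) with edgeR 4.0.16 (R 4.3.3) and its quasi-likelihood F-test. CPM are TMM-scaled unless stated otherwise. Interaction intervals are 95%, on 12 total degrees of freedom. Adjusted p-values are Benjamini-Hochberg over all genes tested, called under 0.05. The fit was run on simulated counts with planted interactions but no other heat or strain effect. The share of planted interactions recovered is not given here. Alternatives were DESeq2 1.42.0, other scalings and filters, only the 8 libraries, replicate blocks, leaving out each library, retaining unmatched rows, and the longest transcript. Plots used matplotlib 3.10.9.

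Genes named are pqm-1 and daf-16, the 12 smallest interaction p-values in each direction among coding genes with a mean log2 CPM of at least 1, non-overlapping responses and counts unlike any other gene's, genes DESeq2 called, genes called for heat in opposite directions, and members of gene lists. The comparison, members and lists were chosen with earlier results of these data known, and list members beyond the leading 3 were named after their values were seen.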

Additional observations from a re-analysis of the deposited data

Results flagged for a closer look

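In 27 of 134 named genes every heat response of the 4 library pairs had one sign in N2 and the opposite sign in the mutant, as in 453 (3.17%) of all 14286 genes tested. The named genes were chosen in part for large interactions. Higher in the mutant were spp-23 (interaction 0.93, log2), F49C12.7 (1.16), dhfr-1 (0.47), cyp-36A1 (0.75), F30F8.10 (0.47), col-123 (1.16), pes-10 (3.65) and aap-1 (0.29), the regulatory subunit of phosphoinositide 3-kinase. Lower in the mutant were gtnt-42 (-0.78), F23H12.5 (-0.74), noah-1 (-1.06), noah-2 (-0.75), let-653 (-0.88), mlt-8 (-0.24), ptr-1 (-0.64), ptr-4 (-0.45), ptr-11 (-0.40), grl-1 (-1.36), grd-1 (-0.38), wrt-2 (-0.76), ptc-3 (-0.32), dpy-7 (-0.86), lpr-1 (-0.54), lpr-6 (-0.76), cdh-10 (-0.95), irg-1 (-1.07) and cyp-35A2 (-0.58). None of these differences passed edgeR's interaction test after adjustment, and spp-23, gtnt-42 and noah-1 passed in DESeq2.

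Among the libraries left out, those labelled replicate 1 at 20 °C held hsp-16.2 at 209 CPM under the N2 name and 324 CPM under the pqm-1 name. If the header is displaced by 1 column, these would be heated libraries of daf-16 and N2. The 20 °C libraries used had at most 0.42 CPM.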

How the results depend on the processing

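No gene was called for the interaction under any alternative except DESeq2, which called 8, and no filter on low counts, which called 280 (102 higher, 178 lower in the mutant), all of them also tested with the filter. Without the filter edgeR's prior degrees of freedom became infinite (5.97 with it), so a gene's own spread no longer entered its test. That setting called 5 of 10 moulting and apical matrix genes, 7 of 64 hedgehog-related or patched-related genes, 9 of 139 collagens and 4 of 14 oocyte genes. It also called 4 of 21 skr and cullin genes, 5 of 129 C-type lectins and 3 of 186 nuclear hormone receptors. Every other list held fewer calls, though some small lists held a larger share than the lectins or receptors. These included 2 of 13 DAF-16 class I genes, 1 of 4 vitellogenins, 1 of 6 irg genes and 1 of 5 hypodermis markers. List sizes are those tested with the filter, where all genes tested numbered 14286, beside the 280 calls. Genes with an unadjusted p under 0.05 numbered 668 with DESeq2, 1786 with no filter, and 623 to 1296 when 1 library was left out. Genes called for heat then numbered 3294 to 4609 in N2 and 2022 to 3707 in the mutant. The median interaction ranged from -0.0437 to 0.0122 in genes that rose with heat in daf-16 and from -0.0914 to 0.0617 in those that fell.

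The replicate numbers do not pair the samples (correlations from -0.06 to 0.00). With a replicate block 0 genes were called and 1123 had an unadjusted p under 0.05; with a strain-by-replicate block 0 and 1262.

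Of 52 list medians 31 kept their sign in every alternative that gave a value, which was 17 for early embryo markers and 18 for the others. The moulting and apical matrix median ranged from -0.66 to -0.48, the hedgehog and patched median from -0.28 to -0.12 and the oocyte median from 0.31 to 0.56, with 0 to 13 oocyte members under an unadjusted p of 0.05. Scaling by library size only moved the median of all genes to -0.02. With 1 library left out, the sign of the interaction changed for hsp-16.2 (-0.7866, -0.0664 and -0.4711, range to 1.9994), hsp-70 (-0.5144 and -0.1499, range to 1.2127), hsp-1 (range -0.0838 to 0.0112), hsp-90 (0.0241, 0.0465 and 0.0051, range from -0.0968), hsp-16.1 (-0.0424 to 0.8448), crt-1 (-0.0941 to 0.0059), chs-1 (-0.0467 to 0.5143), mlt-7 (-0.3876 to 0.0537), elt-3 (-0.0378 to 0.0501) and lpr-2 (-0.2452 to 0.231). elt-3 was also at -0.0048 with library size only and -0.0008 with no filter, and lpr-2 at 0.0053 with the strain-by-replicate block and 0.0007 with unmatched rows kept. With 2 libraries a group, the lone library left in a group is assumed to vary like the others.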

Other observations

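The lipocalin-related family lpr, secreted proteins of the apical matrix, was examined after its values were seen and carries no test. Its 7 members all had a negative interaction, with a median of -0.76, and 5 (71.4%) had an unadjusted p under 0.05, against 4.21% of all genes with a lower response. lpr-3 was at 128 and 101 CPM in N2 at 20 °C and 119.3 and 179 CPM after heat, and at 194 and 207 CPM and then 148 and 138 CPM in the mutant. lpr-5 had an interaction of -0.92, lpr-4 of -0.82, lpr-6 of -0.76, lpr-1 of -0.54, lpr-7 of -0.35 and lpr-2 of -0.01. At 20 °C the mutant was above N2 in 7 of 7.

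The matrix metalloprotease gene adt-1 (-1.45), the mucin-like cuticle gene dpy-6 (-1.04) and the cadherin genes cdh-7 (-1.07) and cdh-10 (-0.95) were also named after their values were seen. They had non-overlapping lower responses, as had 10.7% of all genes. In each of them the N2 libraries at 20 °C were apart from each other, with replicate 3 the lower. These stood at 19.5 and 8.39 CPM for adt-1 and 24.8 and 12.9 CPM for dpy-6. For cdh-7 they were at 19.8 and 11.0 CPM and for cdh-10 at 41.6 and 23.3 CPM.

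A ribosomal RNA row, rrn-1.1, was at 1508 and 2352 CPM in N2 at 20 °C, 547 and 696 CPM in heated N2, 1207 and 788 CPM in the mutant at 20 °C, and 611 and 971 CPM in the heated mutant. Its counts equal those of rrn-1.2. The N2 libraries at 20 °C were the highest of the 8.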
